A study of Mus musculus with 18 samples.

Results

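The 10 genes described here, Ppbp, Pf4, Gp9, Itga2b, Tubb1, Myl9, Gng11, Nrgn, Alox12 and Clu, encode products that are abundant in blood platelets, and they were followed in sequencing libraries of mouse regulatory T (Treg) cells. They are 10 of the 55487 genes in the deposited tables. They were chosen because earlier work on these libraries had found them high in the peripheral blood libraries, so their level in blood against any other site is given as a description and was not tested. All 10 were found in the tables by their Ensembl gene identifier.

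Treg cells are the suppressive subset of CD4+ T cells and are marked by the transcription factor Foxp3. They were freshly prepared from wild-type, untreated mice from 6 sites, namely peripheral blood, bone marrow, spleen, liver, lung and lymph node, with 3 libraries of poly(A) RNA per site and 18 in all. The groups differ by site alone as far as the labels say. The labels give no sorting gates, sex, age, number of animals per library, or whether the libraries of a site came from separate mice, so the p-values below measure only the spread between libraries, which may be technical.

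Platelets are small cell fragments without a nucleus that are shed by megakaryocytes, large cells of the bone marrow. They carry RNA left over from the megakaryocyte, store chemokines and clotting proteins in granules, and bind through glycoprotein receptors to damaged vessel walls and to leukocytes. Platelets are known to adhere to leukocytes in blood, T cells included. In bulk RNA, fewer cells or platelets and less RNA per cell or platelet cannot be told apart.

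The sequence just upstream of a gene's start is where megakaryocyte transcription factors of the GATA, ETS and NF-E2 families are known to act. RefSeq promoters (GRCm38.p6, the mm10 build named in the submitters' processing notes) were found for 8 of the 10 members, all but Gng11 and Clu. The 250 bases before the start are printed 5′ to 3′ for 4 members, because these are the chemokine pair that sits side by side on chromosome 5 and the receptor subunits, and each was called higher in bone marrow than in spleen. The windows are chr5:90768268-90768517 (plus strand) for Ppbp, chr5:90772185-90772434 (plus strand) for Pf4, chr6:87777820-87778069 (plus strand) for Gp9 and chr11:102469884-102470133 (minus strand) for Itga2b. Capitals mark the motif matches, read on either strand. The starts used here are those of RefSeq. The Ensembl span of Itga2b, given below, ends at base 102470122, so most of its window and its marked matches lie inside that span.
Ppbp: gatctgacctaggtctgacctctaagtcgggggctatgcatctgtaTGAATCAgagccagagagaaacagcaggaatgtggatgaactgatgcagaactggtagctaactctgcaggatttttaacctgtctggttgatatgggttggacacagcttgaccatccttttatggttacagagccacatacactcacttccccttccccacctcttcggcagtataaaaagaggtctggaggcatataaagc
Pf4: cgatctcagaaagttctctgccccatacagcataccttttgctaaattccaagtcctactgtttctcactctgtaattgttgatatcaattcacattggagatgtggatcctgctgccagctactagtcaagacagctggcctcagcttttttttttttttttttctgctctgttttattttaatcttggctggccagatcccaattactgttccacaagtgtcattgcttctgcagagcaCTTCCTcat
Gp9: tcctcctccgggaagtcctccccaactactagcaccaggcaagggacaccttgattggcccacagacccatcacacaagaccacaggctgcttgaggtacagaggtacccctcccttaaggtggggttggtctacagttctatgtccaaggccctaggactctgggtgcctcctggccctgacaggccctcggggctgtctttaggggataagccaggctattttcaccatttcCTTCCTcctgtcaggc
Itga2b: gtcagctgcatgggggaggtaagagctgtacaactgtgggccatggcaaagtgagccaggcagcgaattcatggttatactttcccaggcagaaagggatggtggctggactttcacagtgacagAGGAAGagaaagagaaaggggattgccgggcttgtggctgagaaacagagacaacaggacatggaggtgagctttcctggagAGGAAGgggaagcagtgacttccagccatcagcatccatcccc
The ETS motif AGGAAG (or CTTCCT) was present in 4 of the 8 windows, those of Pf4, Tubb1, Gp9 and Itga2b, against 29.5% of 32851 promoter windows of the same length. The pattern TGANTCA is a loose form of the NF-E2/AP-1 motif, with any base at N. It was present in 1 of 8 windows, that of Ppbp, against 6.75% of all windows. The letters in Ppbp are TGAATCA, and the loose pattern does not show that they form an NF-E2/AP-1 site. The GATA motif AGATAA (or TTATCT) was present in 0 of 8, against 9.99% of all windows. A match says only that these letters stand in the window, and its absence says nothing of the factor. The motifs do not overlap each other in these windows.

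In the blood libraries the 10 genes summed to 4075 ± 32.8 TPM (a length-corrected share of the library's RNA, scaled to the same total in each library; SD, n = 3), or 0.408% of the library. The sum was 85.72 ± 6.67 TPM in bone marrow, 21.21 ± 11.8 in lung, 14.96 ± 7.54 in liver, 13.76 ± 3.21 in spleen and 5.337 ± 3.28 in lymph node (SD, n = 3 each). The blood mean was 47.5 times the bone marrow mean. Every one of the 3 blood libraries lay above every one of the 15 organ libraries for all 10 genes. The share of all genes that separate in this way is not given here, and the limma calls that follow are an unlike measure. As background, 20.1% of the 16694 genes tested were called higher in blood than in spleen (limma, adjusted p under 0.05), 16.4% than in lymph node, 13% than in bone marrow, 23.3% than in liver and 26.4% than in lung; since the blood level chose the members, nothing is read from this. Of the 150 member values in the organs, 40 were listed at 0, with 13 of 30 in lymph node, 12 in liver, 7 in spleen, 7 in lung and 1 in bone marrow, and none of the 30 in blood.

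**Figure D1:**
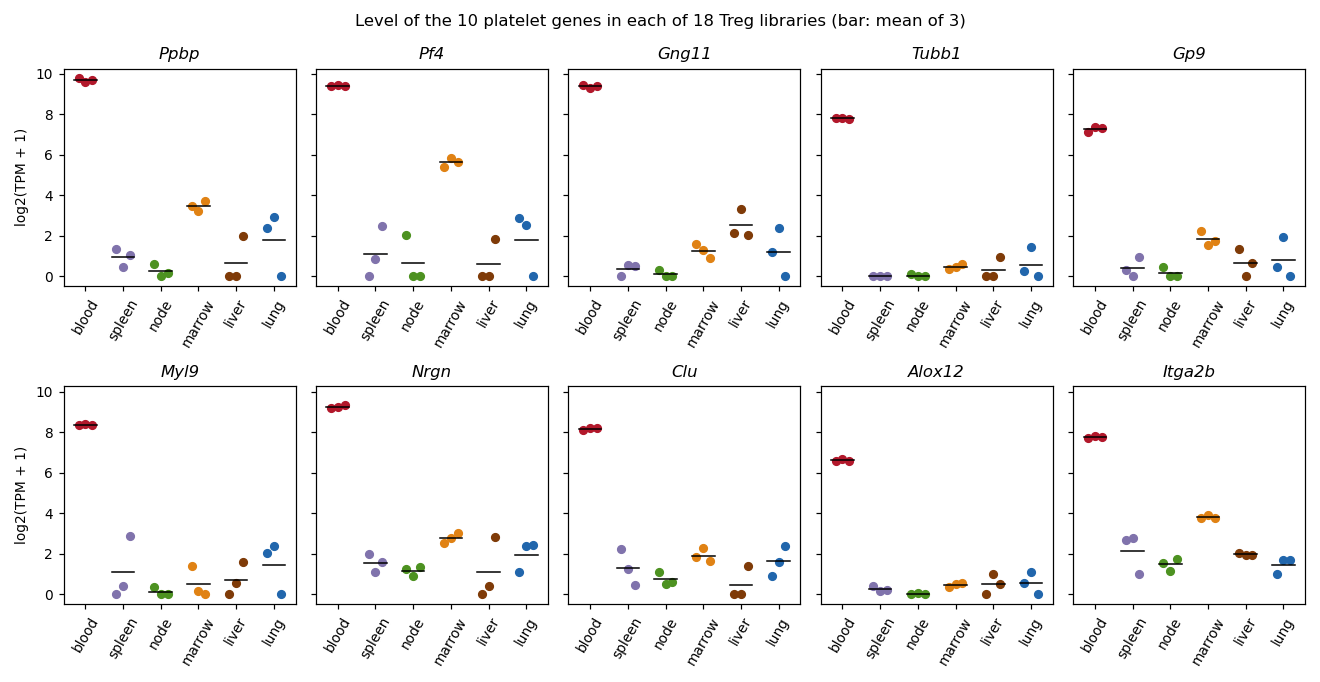
Level of each of the 10 genes in each library, as log2(TPM + 1), with 1 panel per gene, 1 dot per library and a bar at the mean of 3. The 3 blood libraries lie together at the top of each panel, bone marrow stands clear of the other organs for Ppbp, Pf4 and Itga2b, and the remaining organ dots are scattered near 0.

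The chemokines came first. Ppbp (ENSMUSG00000029372, chr5:90768518-90770063, plus strand) encodes pro-platelet basic protein, the precursor of the neutrophil-attracting CXCL7, and was the most abundant member in blood, at 867.46, 764.39 and 818.82 TPM in libraries 1, 2 and 3. In bone marrow it stood at 9.91, 8.25 and 11.96 TPM, in lung at 4.23, 6.68 and 0, in liver at 0, 0 and 2.99, in spleen at 1.55, 0.36 and 1.06 and in lymph node at 0.50, 0 and 0.11 TPM. Bone marrow was the highest of the organs, with no overlap with any other organ library, and lung library 3 had none of the signal seen in the other lung libraries. The smallest log2 fold change of blood over an organ was 6.22 ± 0.62 (SE), against bone marrow.

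Pf4 (ENSMUSG00000029373, chr5:90772435-90773383, plus strand) encodes platelet factor 4, the alpha-granule chemokine CXCL4, and starts 2371 bases beyond the end of Ppbp. Its blood values were 678.34, 695.55 and 666.14 TPM. Bone marrow held 40.87, 55.39 and 49.24 TPM, while lung held 6.25, 4.87 and 0, spleen 0, 0.83 and 4.62, lymph node 3.10, 0 and 0 and liver 0, 0 and 2.55 TPM. Bone marrow was thus well apart from all 12 libraries of the other organs. Pf4 had the smallest fold of any member between the lowest blood library and the highest organ library, 12, and its log2 fold change of blood over bone marrow was 3.79 ± 0.77 (SE).

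Receptor subunits followed. Itga2b (ENSMUSG00000034664, chr11:102453297-102470122, minus strand) encodes integrin alpha-IIb, the partner of beta-3 in the fibrinogen receptor, and is also a marker of the megakaryocyte lineage. It stood at 206.54, 226.16 and 214.57 TPM in blood and at 12.47, 14.20 and 12.36 TPM in bone marrow. It was the only member above 0 in every one of the 15 organ libraries: spleen had 5.34, 5.78 and 1.00, liver 3.14, 2.77 and 2.85, lymph node 1.86, 1.23 and 2.34 and lung 0.99, 2.21 and 2.18 TPM. Bone marrow lay above all of these. Gm23563 is annotated within its span, and it was at 0 in every library.

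Gp9 (ENSMUSG00000030054, chr6:87778072-87779768, plus strand) encodes glycoprotein IX of the von Willebrand factor receptor. Blood held 136.07, 161.64 and 160.88 TPM, bone marrow 3.74, 1.92 and 2.34 and lung 0.35, 2.80 and 0 TPM. In spleen, lymph node and liver no library exceeded 1.57 TPM. Bone marrow and lung overlapped.

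The cytoskeletal genes came next. Tubb1 (ENSMUSG00000016255, chr2:174450695-174457882, plus strand) encodes the beta-1 tubulin of the platelet's marginal band, and stood at 224.76, 224.86 and 216.87 TPM in blood. It was listed at 0 in all 3 spleen libraries, so no fold is given against spleen. Bone marrow had 0.30, 0.39 and 0.50, lung 0.19, 1.75 and 0, liver 0, 0 and 0.93 and lymph node 0.07, 0 and 0 TPM. Tubb1 had the largest fold of any member between the lowest blood and the highest organ library, 124. Its bone marrow values overlapped those of lung and liver.

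Myl9 (ENSMUSG00000067818, chr2:156775420-156781658, plus strand) encodes a myosin regulatory light chain of platelets and smooth muscle. Blood held 319.65, 337.42 and 329.14 TPM. In bone marrow it was at 1.58, 0.13 and 0 TPM and in lung at 3.02, 4.15 and 0. Spleen library 3 alone reached 6.21 TPM, against 0 and 0.34 in the other spleen libraries. The smooth muscle and stroma list (8 genes) summed to between 8.43 and 11.51 TPM in blood and between 1.03 and 4.29 TPM in spleen. Its highest gene in blood was Acta2, at 6.973 ± 1.05 TPM (SD, n = 3). The part of smooth muscle cells in the level of Myl9 was not tested.

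Gng11 (ENSMUSG00000032766, chr6:4003904-4008445, plus strand) encodes a G protein gamma subunit. It stood at 697.96, 625.28 and 677.43 TPM in blood and, unlike the other members, had its highest organ mean in liver, at 3.46, 9.05 and 3.17 TPM. Bone marrow had 2.02, 1.48 and 0.85 and lung 1.31, 4.30 and 0 TPM. The liver values rest on little depth, about 7, 15 and 6 reads. The summed level of 8 endothelial markers was also highest in liver, at 19.63 to 38.17 TPM with none of the 8 at 0 in all 3 libraries, against 2.95 to 4.47 TPM in blood. Egfl7 (12.62 TPM) and Kdr (5.163 TPM) made up most of the liver sum, while Plvap and Tie1 had their highest mean in bone marrow and Lyve1 in blood. The part of endothelial cells in the liver value of Gng11 was not tested.

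Nrgn (ENSMUSG00000053310, chr9:37544492-37552904, minus strand) encodes neurogranin, a calmodulin-binding protein. Its blood values were 581.79, 609.75 and 638.26 TPM, and its bone marrow values 4.83, 5.85 and 6.99 TPM. It was above 0 in all 15 organ libraries but 1, reaching 5.97 TPM in liver library 3 against 0 and 0.34 in the other liver libraries, so bone marrow and liver overlapped.

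The enzyme Alox12 (ENSMUSG00000000320, chr11:70241457-70255353, minus strand), the 12-lipoxygenase of platelets, was the least abundant member in blood, at 94.63, 99.47 and 94.73 TPM. Its highest organ library was lung 2, at 1.16 TPM. Clu (ENSMUSG00000022037, chr14:65968483-65981547, plus strand), the secreted chaperone clusterin of alpha granules, stood at 271.13, 295.46 and 288.46 TPM in blood. Its highest organ library was lung 3, at 4.23 TPM, the library in which 7 other members were listed at 0. Bone marrow held 2.59, 3.77 and 2.06 TPM, overlapping lung and spleen.

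Among themselves the blood libraries differed little, with coefficients of variation from 2.06% to 9.52% across the 10 genes. Below blood, bone marrow was second in mean level for 6 members, lung for 3 and liver for 1. Of 40 neighbouring pairs of organs in the members' orders of mean level, only 7 were free of overlap. Most of the members' order below blood was thus within the spread of libraries, and the share over all genes is not given here. Low values in the organs rest on few reads, and the part of read depth in their scatter was not tested. At a transcript length of 1 kb, 1 read was worth on average 0.0829 TPM in the blood libraries and 0.0875 TPM in those of lymph node. It was worth 0.376 TPM in liver, 0.233 in lung, 0.157 in spleen and 0.116 in bone marrow, as read from the steps between low values. Ppbp then rested on about 7869 to 9419 reads in blood, 62 to 87 in bone marrow, 0 to 25 in lung and 0 to 5 in lymph node. A value of 0 in a liver or lung library is therefore a weaker statement than a 0 in a lymph node library. Libraries of one organ differed in how many members were listed at 0: liver library 3 had none, while liver library 1 had 7 and liver library 2 had 5. Ppbp, Pf4, Tubb1, Myl9, Nrgn and Clu were highest in liver library 3. Gp9 and Itga2b were highest in liver library 1, and Gng11 and Alox12 in liver library 2. Gng11 rested on about 7, 15 and 6 reads in liver libraries 1, 2 and 3, and Itga2b spanned only 2.77 to 3.14 TPM. Whether the members moved together there was not tested.

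Differences among the 5 organs played no part in the choice of the members and could be tested. Pf4, Itga2b, Ppbp, Gng11 and Gp9 differed among the organs in limma's F test on log2(TPM + 1), with adjusted p of 0.000174, 0.000157, 0.00236, 0.0024 and 0.0295. Clu, Nrgn, Alox12, Tubb1 and Myl9 did not pass, with adjusted p of 0.0565, 0.0639, 0.366, 0.39 and 0.444 in the same limma test. That is 5 of 10 members, while 62.5% of all genes tested passed. Tubb1 and Alox12, which are among those that did not pass, entered the test only through their level in blood, since in no organ did their mean reach 1 TPM. The share of members that passed is near the background and is no result about them.

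Set against single organs, bone marrow was called higher than spleen for 4 members (background 18.2%), than lymph node for 5 (13.7%), than liver for 5 (25.1%) and than lung for 3 (30.3%). The background of lower calls was 5.92%, 8.89%, 9.36% and 13.2%, and Gng11 against liver was the single member called lower. These comparisons share the bone marrow libraries. Pf4 was higher in bone marrow by 4.50 ± 0.77, 4.94 ± 0.77, 5.01 ± 0.77 and 3.81 ± 0.77 on the log2 scale (± SE) against spleen, lymph node, liver and lung (limma adjusted p between 0.000114 and 0.000843). Itga2b was higher by 1.66, 2.33, 1.84 and 2.36 (SE 0.35), with adjusted p from 5.39e-05 to 0.00222 in limma. Ppbp was higher by 2.51, 3.21, 2.79 and 1.68 (SE 0.62), the last with an adjusted p of 0.0391 in limma. Without lung library 3, which held no Ppbp, the value against lung was 0.79 with an adjusted p of 0.212, and that call was also lost without any 1 of 6 other libraries. With a pseudocount of 0.1 the Ppbp call against spleen was lost too (limma adjusted p = 0.105). Each of the 8 Pf4 and Itga2b calls was kept under every alternative run.

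The remaining calls were each lost when 1 library was left out. Gp9 passed against spleen, by 1.42 ± 0.44 (limma adjusted p = 0.0277), and lymph node, by 1.69 ± 0.44 (limma adjusted p = 0.0104). Without bone marrow library 1 these were 1.22 and 1.48, with adjusted p of 0.113 and 0.0539. Nrgn passed against lymph node, by 1.61 ± 0.54 (limma adjusted p = 0.0438), and liver, by 1.70 ± 0.54 (limma adjusted p = 0.0241). Without lymph node library 2 the first was 1.48 with an adjusted p of 0.137, and without liver library 1 the second was 1.16 with an adjusted p of 0.11. Clu passed against liver, by 1.44 ± 0.46 (limma adjusted p = 0.0243), and without bone marrow library 2 was at 1.27 with an adjusted p of 0.0905. Gng11 was lower in bone marrow than in liver by 1.25 on the log2 scale, written -1.25 ± 0.46 (limma adjusted p = 0.048). Leaving out any 1 of 14 libraries ended that call, and without liver library 2 the value was -0.84 with an adjusted p of 0.191. Tubb1, Myl9 and Alox12 gave no call, with differences between -0.94 and 0.48.

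The make-up of the platelet gene signal differed between bone marrow and blood. Pf4 made up 56.4% ± 4.18 of the members' sum there, against 16.7% ± 0.498 in blood, and Itga2b 15.2% ± 0.844 against 5.3% ± 0.274 (SD, n = 3 each). In the other direction, Gng11 made up 1.72% ± 0.801 against 16.4% ± 0.827, and Tubb1 0.461% ± 0.102 against 5.45% ± 0.15. Relative to Pf4 within the same library, Ppbp stood at 0.211 in bone marrow (range 0.149 to 0.243) and 1.2 in blood (1.1 to 1.28), Nrgn at 0.122 and 0.897, and Alox12 at 0.00807 and 0.142. The ratio of Itga2b to Pf4 was 0.271 ± 0.0298 in bone marrow and 0.317 ± 0.0112 in blood, and there the libraries overlapped. Because blood values chose the members, these ratios are given with no test.

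**Figure D2:**
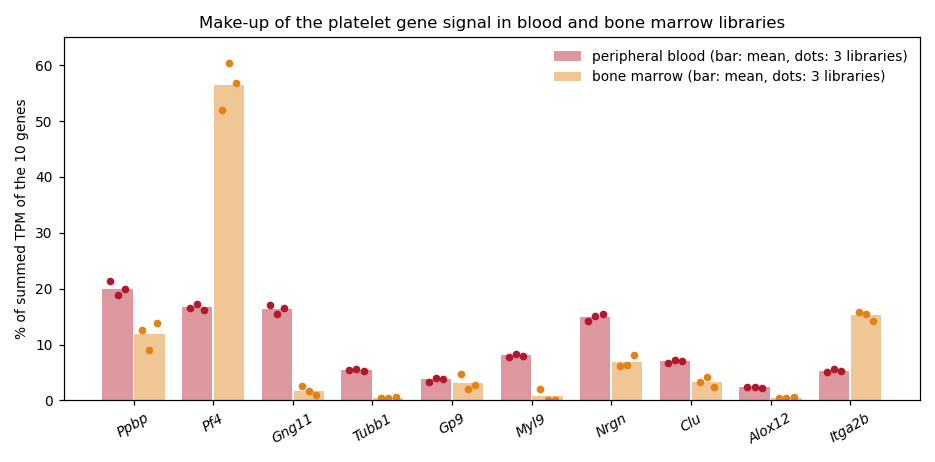
Share of each gene in the summed TPM of the 10 genes, in percent, for blood and bone marrow; bars are means of 3 libraries and dots the libraries. Pf4 takes 52.0% to 60.3% of the bone marrow sum and 16.2% to 17.2% of the blood sum, while Gng11, Tubb1, Myl9 and Alox12 take smaller shares in bone marrow.

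Other platelet genes, none of them members, were tested in blood against each organ with limma. The 62 genes were taken as 4 lists of receptors (20), granule and secreted proteins (12), signalling and cytoskeleton (18) and megakaryocyte regulators (12), and all 62 were tested. Called higher in blood were 49 against spleen, 48 against lymph node, 36 against bone marrow, 48 against liver and 51 against lung. The background was the 20.1%, 16.4%, 13%, 23.3% and 26.4% of all genes given above. Called lower were 2, 3, 10, 5 and 4, against a background of 15.3%, 21%, 18.8%, 16.1% and 17.3%. The median log2 fold change of the 62 was 2.61 against spleen, 2.95 against lymph node, 1.10 against bone marrow, 2.63 against liver and 2.33 against lung, where the medians of all genes tested were 0.00, -0.15, -0.11, 0.07 and 0.12. The 5 comparisons share the blood libraries. The lists were chosen with earlier results of these data known. Genes whose mean reached 1 TPM in no organ, P2ry12, Mylk, Gp6 and Mpig6b among them, entered only through their level in blood. Calls of those genes as higher in blood are no independent support. When libraries were scaled to 20 general T cell genes, the split against bone marrow went from 36 higher and 10 lower to 45 higher and 4 lower. All genes shifted the same way there, from 2176 higher and 3132 lower to 5928 higher and 1195 lower of 16694.

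**Figure D3:**
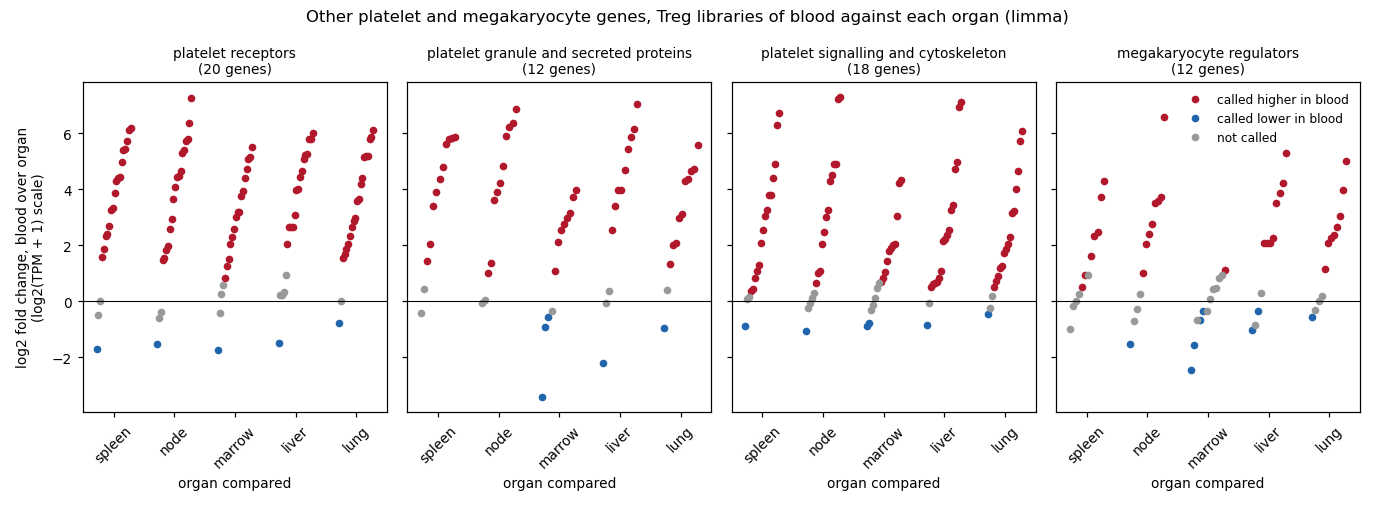
Log2 fold change of blood over each organ, on the log2(TPM + 1) scale, for each gene of the 4 lists, sorted within an organ; colours give the limma call. Receptors, granule proteins and signalling genes lie mostly above 0, and the megakaryocyte regulators lie around 0 against bone marrow, where 1 of 12 was called higher and 4 lower.

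Of the 20 receptors, 17 were called higher in blood than in spleen, 17 than in lymph node, 16 than in bone marrow, 15 than in liver and 18 than in lung. Clec1b, the podoplanin receptor CLEC-2, had 150.3 TPM in blood and at most 3.097 TPM as a mean of any organ. Treml1, a receptor of alpha granules, had 81.14 TPM in blood against 2.943 in bone marrow, its highest organ. P2ry12, the ADP receptor blocked by antiplatelet drugs, had 60.71 TPM against at most 0.9333, and Gp1bb, the partner of Gp9 in the von Willebrand factor receptor, 54.2 TPM against at most 1.147. Their smallest log2 fold changes were 5.21 ± 0.48, 4.41 ± 0.31, 5.13 ± 0.34 and 4.71 ± 0.23 (SE), with adjusted p of at most 2.94e-07 in limma. P2ry12 entered this test only through its level in blood. Pear1, an aggregation receptor, went the other way: it was lower in blood (22.34 TPM) than in each organ (38.86 to 75.64 TPM), with log2 fold changes from -1.73 to -0.79 and adjusted p of at most 0.00081 in limma. With libraries scaled to T cell genes, Pear1 was no longer called against lung (adjusted p = 0.518) or lymph node (adjusted p = 0.0614).

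Granule and secreted proteins were called higher for 10 of 12 against spleen, 10 against lymph node, 8 against bone marrow, 9 against liver and 10 against lung. F13a1, the clotting factor XIII A chain, which monocytes also make, had 181.7 TPM in blood against 30.42 in bone marrow, a log2 fold change of 2.54 ± 0.25 (limma adjusted p = 1.03e-06). Vwf, von Willebrand factor, had 75.89 and 7.993 TPM, F5, clotting factor V, 62.99 and 7.21, and Mmrn1, the factor V binding protein multimerin, 27.32 and 1.157. Sparc, a matrix protein also made by stroma, was listed at 0 in all 3 blood libraries and had 9.75 TPM in bone marrow, 3.787 in liver and 1.103 in lung. It was called lower in blood than in bone marrow (limma adjusted p = 2.57e-06), liver (0.000134) and lung (0.0424, and 0.195 without lung library 2). Nbeal2, needed for alpha granule formation, had 93.06 TPM in blood against 139 in bone marrow and was lower in blood by 0.57 on the log2 scale (limma adjusted p = 0.0291); without blood library 1 the adjusted p was 0.0842, and with T cell scaling the sign turned, to 0.01.

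Signalling and cytoskeletal genes were called higher for 15, 13, 11, 16 and 15 of 18, in the same order of organs. Parvb, an integrin-linked adaptor, had 148.2 TPM in blood against 6.617 in bone marrow, a log2 fold change of 4.34 ± 0.27 (limma adjusted p = 6.28e-09). Rgs18, a regulator of G protein signalling in platelets, had 159.9 and 18.74 TPM, Mylk, the kinase of myosin light chain, 30.07 and 0.7633, and Prkar2b, a protein kinase A subunit, 69.34 and 17.77. Ehd3, a membrane trafficking protein, was lower in blood (15.68 TPM) than in the organs other than lung (27.77 to 33.94 TPM; limma adjusted p of at most 1.34e-05). With T cell scaling its log2 fold change turned to 0.05, 0.10 and 0.05 against spleen, lymph node and liver, and the bone marrow call was lost (adjusted p = 0.0738). Tuba4a, an alpha tubulin, was lower in blood than in bone marrow, at 120.2 against 221.5 TPM (log2 fold change -0.88 ± 0.10, limma adjusted p = 4.83e-06).

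Megakaryocyte regulators, the transcription factors that build the lineage, were called higher in blood for 7 of 12 against spleen, 8 against lymph node, 8 against liver and 8 against lung, but for 1 of 12 against bone marrow, where 4 were lower. Their median log2 fold change was -0.14 against bone marrow, where it was 2.78 for the receptors. Zfpm1, the GATA cofactor FOG1, had 17.33 TPM in blood against 52.23 in bone marrow (log2 fold change -1.55 ± 0.41, limma adjusted p = 0.00904), and Runx1, also a T cell factor, 40.09 and 65.25 (-0.67 ± 0.15, limma adjusted p = 0.00222). With T cell scaling neither was called against bone marrow (adjusted p = 0.0689 and 0.686), and the split of the 12 there became 4 higher and 1 lower. These genes are not specific to megakaryocytes, and in the lymph node libraries, where the members summed to 5.337 TPM, Gata1, Zfpm1, Fli1 and Runx1 stood at 35.93, 51.47, 46.19 and 48.74 TPM.

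Molecules through which leukocytes bind platelets or receive their signals were listed as 10 genes. In blood, 4 were called higher than in spleen, 5 than in lymph node, 5 than in bone marrow, 6 than in liver and 7 than in lung, where 20.1%, 16.4%, 13%, 23.3% and 26.4% of all genes tested were called higher. Called lower were 2, 3, 2, 3 and 2 of the 10, near the 15.3%, 21%, 18.8%, 16.1% and 17.3% of all genes. Selplg, the P-selectin ligand PSGL-1, had 618 ± 25.7 TPM in blood (SD, n = 3) and 342.2 to 473.4 TPM in the organs, with log2 fold changes from 0.38 ± 0.07 to 0.86 ± 0.07 (SE; limma adjusted p of at most 0.000366). Itgb2, the beta-2 integrin chain, had 555.3 TPM against 166.1 to 388.5 (log2 fold changes 0.51 to 1.74, limma adjusted p of at most 7.3e-07). Its partner Itgam, the Mac-1 alpha chain of myeloid cells, stood at 199.8 TPM in blood, 112.9 in bone marrow and at most 7.83 elsewhere; the bone marrow call (limma adjusted p = 0.0205) was lost without bone marrow library 3 (adjusted p = 0.058). Cxcr2, the neutrophil receptor for the Ppbp product, stood at 249.4 TPM in blood, 56.19 in bone marrow and at most 2.317 elsewhere (log2 fold change over bone marrow 2.13 ± 0.34, limma adjusted p = 0.000153).

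Cxcr3, for which the Pf4 product is one described ligand, was lower in blood (22.92 TPM) than in each organ (35.68 to 138.5 TPM; limma adjusted p of at most 2.85e-05). With T cell scaling the sign against lymph node turned, from -0.62 to 0.56. Cd40lg was lower in blood (10.83 TPM) than in each organ (17.31 to 46.3 TPM; limma adjusted p of at most 0.0296); against spleen the adjusted p was 0.0949 without spleen library 3, and T cell scaling turned the sign there to 0.30 and ended the calls against lymph node (adjusted p = 0.705) and bone marrow (adjusted p = 0.365). Cd40, on B cells and myeloid cells, had 18.11 TPM in blood and was called higher than in lymph node, liver and lung; with a pseudocount of 0.1 the limma adjusted p was 0.0678 against lymph node and 0.0768 against lung. Itgal, the LFA-1 alpha chain, was called higher against bone marrow, liver and lung and lower against lymph node (-0.15 ± 0.06, limma adjusted p = 0.0492), where T cell scaling gave 1.06 and median-of-ratios scaling 0.09. Cd226 was higher in blood than in lung and lower than in liver, with 0.20 under T cell scaling in the latter, and Icam2 gave no call, at 77.63 TPM in blood and 54.26 to 74.52 TPM elsewhere. Over the 5 comparisons 27 calls were higher and 12 lower as deposited, and 40 higher and 6 lower with T cell scaling, which raised the higher calls among all 16694 genes as well, to between 5928 and 10335 per comparison.

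Markers of other cells also differed between the sites, some with the members and some not. Neutrophil markers (11 genes) summed to between 17360 and 18490 TPM in blood and 45730 and 46210 in bone marrow, against 15.94 to 771 TPM over the other 12 libraries, and none of the 11 was at 0 in all 3 blood libraries. In limma, 5 of the 11 were called higher in blood than in spleen (background 20.1%) and 6 than in lung (26.4%). Against lymph node (16.4%) it was 11, and against liver (23.3%) 7. Camp, Ngp, Ltf, Mpo and Elane were called over neither spleen nor lung. Mpo had 3.207 TPM in blood, 3.373 in spleen and 6.0 in lung. S100a9, the highest, stood at 9048 ± 305 TPM in blood and 20700 ± 20.4 in bone marrow (SD, n = 3). Monocyte and macrophage markers (12 genes) summed to between 8447 and 8667 TPM in blood, 3032 and 3146 in bone marrow and 60.47 to 1232 elsewhere. Lyz2, at 7469 ± 107 TPM in blood, made up most of the blood sum. In limma, 10 of the 12 were called higher in blood than in spleen, 11 than in lymph node and 9 than in bone marrow (background 13%). It was 11 against liver and 10 against lung. Ms4a7 was called against no organ, Cd14 not over bone marrow or lung, and Cd163 not over spleen or bone marrow. Erythroid markers were highest in liver (10930 to 11970 TPM), where the members were low, and stood at 2826 to 2992 TPM in blood. General T cell genes (20) summed to 5337 ± 55.2 TPM in blood and 8266 to 12490 TPM as means of the organs, with Cd3e at 277.2 ± 8.04 TPM in blood and 430.5 to 690.6 elsewhere, and Foxp3 at 88.65 ± 3.39 against 139.7 to 238.5 TPM. The 6 Treg markers that check the labelled cell type summed to 502.5 ± 5.34 TPM in blood and to means of 935.2 to 2527 TPM in the organs, though not every marker was lowest in blood: Il2ra had 100.5 TPM there and 57.13 in bone marrow. The part that the other cells have in the members' level was not tested.

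**Figure D4:**
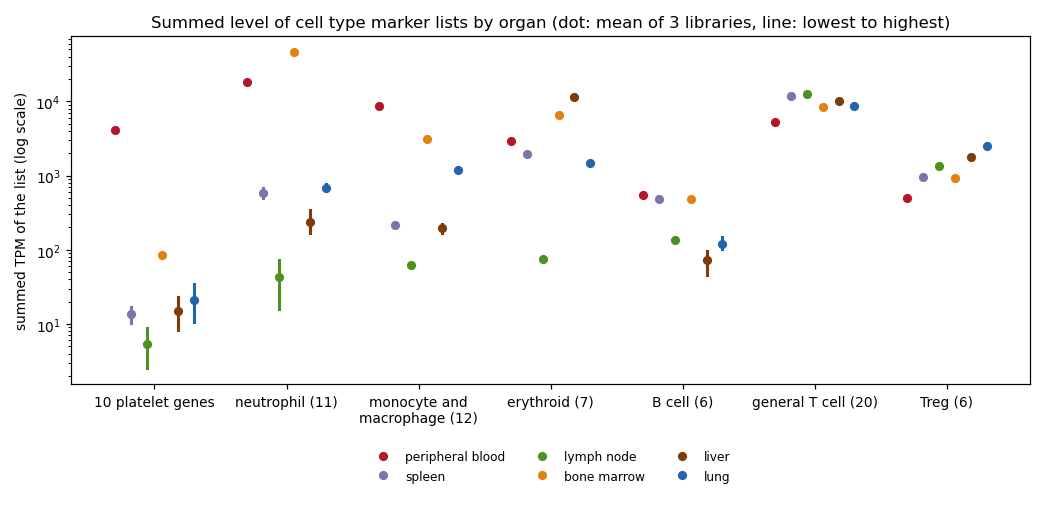
Summed TPM (log scale) of the 10 platelet genes and of 6 marker lists in the 6 sites; dots are means of 3 libraries and lines run from the lowest to the highest library. By sum, the platelet genes are highest in blood, neutrophil markers in bone marrow, and monocyte and macrophage markers in blood. The erythroid sum is highest in liver and the Treg sum in lung. Ctla4, at a mean of 1486 TPM, makes up most of the lung Treg sum. Ctla4 and Tnfrsf18 have their highest mean in lung, Foxp3, Il2ra and Ikzf4 in lymph node and Ikzf2 in liver.

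The genes whose pattern was most like the members' were sought among the 9435 genes that averaged 10 TPM or more in some site, by Pearson's r over the 18 libraries with the members' mean on the log2(TPM + 1) scale. Among the 10 highest were Gp6 (r = 0.992), Abca9 (0.990), Mylk (0.990), Mmrn1 (0.989), Gp5 (0.986), Gp1bb (0.985), Skint3 (0.981), Mpig6b (0.981) and Draxin (0.980). Of the 10, 7 were on the platelet lists, which held 53 of the 9435 candidates. Of the 100 highest, 18 were on those lists. Since the members were chosen for their level in blood, these counts are a description. Gp6, the collagen receptor, had 20.58 ± 3.11 TPM in blood (SD, n = 3). Abca9, Skint3 and Draxin, which were on no list, had 20.82 ± 0.836, 10.03 ± 1.3 and 12.56 ± 0.887 TPM in blood and at most 1.4, 0.347 and 0.0933 TPM as a mean of any organ. The r describes these 18 libraries, in which 3 blood libraries stand far from the other 15.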

How the data were processed

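Poly(A) RNA of Treg cells was sequenced in 18 libraries, 3 for each of 6 sites. The authors deposited 1 table of TPM values per library, for 55487 Ensembl genes, per the file headers; STAR, RSEM and mm10 are named in the submitters' processing notes, without tool versions, and whether strand was used in counting is not given in the sources used here. TPM sums to the same total in each library (999999.27 to 1000000.62) and is a share, so abundant RNA of any kind lowers all other values. It keeps no library total, and the read-equivalents, scaled from the steps between low values of genes with 1 transcript, are approximate (73.3% to 92.1% of low values fell within 0.1 of a whole read). No 2 tables were identical. Symbols came from the GENCODE M21 names (55141 genes matched); Ahsp was not used here.

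Expression was tested with limma 3.58.1 in R 4.3.3 on log2(TPM + 1), in 1 model of all 18 libraries with a mean per site, moderated variances with trend and robust settings, and Benjamini-Hochberg adjustment over the 16694 genes that averaged 1 TPM or more in some site. A gene is called at an adjusted p under 0.05. Fold changes are on the log2(TPM + 1) scale and understate the change of low genes; against a site listed at 0 they depend on the pseudocount. The test was checked on simulated data. The members and lists were chosen with earlier results of these data known. Named are all members, per platelet list the 4 genes highest on average among those called higher against all 5 organs and the 2 lowest among those called lower at least once, all binding partners, and the 10 genes most like the members, of which 1 is not reported here; list genes named beyond this, such as Gata1, Fli1 and Itgb3, were chosen after their values were seen. Alternatives were another pseudocount, other filters, scaling to T cell genes or by median of ratios, library weights, plain moderation, a replicate block, fewer groups, and each library left out.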

Additional observations from a re-analysis of the deposited data

How the results depend on the processing

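Pf4 and Itga2b kept their direction and call in bone marrow under every alternative. Scaling to T cell genes raised the median log2 fold change of all genes to between 0.36 and 0.86 for blood over an organ, and it changed the most: calls lower in blood, summed over 5 comparisons, were 8 for the platelet lists (24 as deposited) and 6 for the binding partners (12), and the members' sum in blood was 6804 TPM (4075), or 4288 with median of ratios. Signs turned under T cell scaling for Ehd3 (0.05 spleen, 0.10 lymph node, 0.05 liver), Cd40lg (0.30, spleen), Itgal (1.06, lymph node; 0.09 with median of ratios), Cxcr3 (0.56, lymph node), Nbeal2 (0.01, bone marrow), Cd226 (0.20, liver) and Runx1 (0.10, lung); the median log2 fold change of the 20 T cell genes was between -1.23 and -0.63 for blood over an organ, so this scaling raises blood values by construction. With library weights 9 members passed among the organs (5) and 9 were higher in bone marrow than lymph node (5), and with a pseudocount of 0.1 only 2 were higher than spleen (4); the cause was not tested.

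Leaving out 1 library at a time, members called among the organs ranged from 4 to 7, and those higher in bone marrow from 3 to 5 (spleen), 3 to 6 (lymph node), 3 to 6 (liver) and 2 to 4 (lung). Platelet list genes called higher in blood ranged from 47 to 50, 47 to 49, 34 to 37, 48 to 49 and 50 to 52 for spleen, lymph node, marrow, liver and lung in turn. The count of members over lymph node was 3 without bone marrow library 1, and that over liver was 3 without bone marrow library 2 or without liver library 2. Whether replicate numbers pair the libraries cannot be told. Deviations of same-numbered libraries correlated by 0.006 on average over 45 pairs. Those of differently numbered libraries correlated by -0.003 over 90 pairs, and no pair of either kind was over 0.1. Of 18 libraries, 9 correlated best with their own number. With so few libraries per site, this check cannot exclude pairing. With a replicate block the counts were 49, 47, 35, 48 and 51, and members over lung 2. Depth limits low values in liver and lung more than in blood: 1 read was worth 0.376, 0.233 and 0.0829 TPM.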

Other observations

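Within 100 kb of Ppbp and Pf4 on chromosome 5 lie other chemokine genes of the same cluster, and they did not share the level of the pair. Cxcl5 (chr5:90759360-90761624), a neutrophil chemokine, had 1.29 ± 0.38 TPM in blood (SD, n = 3), against 817 and 680 TPM for Ppbp and Pf4. Cxcl3 (chr5:90786103-90789600) had 0.237 ± 0.41 TPM in blood and its highest mean, 9.29 ± 5.46 TPM, in lung. Cxcl15 (chr5:90794534-90803067) was listed at 0 in every library of the 6 sites. None of these was tested here.

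Part of the platelet lists is made of genes that were present where the members were lowest. In lymph node libraries, 16 of the 62 list genes had a mean of at least 10 TPM and 35 had a mean under 1 TPM. The 16 were Itgb3, Tbxa2r, Pear1, Cd9, Nbeal2, Tuba4a, Tpm1, Tpm4, Actn1, Ehd3, Fermt3, Rasgrp2, Gata1, Zfpm1, Fli1 and Runx1. Itgb3, the beta-3 partner of Itga2b, had 27.66 TPM in lymph node, 68.08 in liver, 78.63 in lung and 79.05 in blood, and was not called between blood and lung (limma adjusted p = 0.952) or blood and liver (limma adjusted p = 0.0773). Itga2b stood at 215.8 TPM in blood and 1.81 TPM in lymph node.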
